A study of Caenorhabditis elegans with 58 samples.

Results

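The course of microRNAs (miRNAs) through embryogenesis into the first larval stage was followed in Caenorhabditis elegans that lack EBAX-1. The libraries were those whose titles name ebax-1(null) at 1 of 4 stages: the 2-8 cell embryo, the comma stage embryo, the pretzel stage embryo and the starved L1 larva. There were 8 such libraries, 2 per stage, among 58 in the series. The series asked how the mir-35 family decays on schedule during development. All 8 libraries came from whole hermaphrodites of strain CZ9907, which carries the allele ebax-1(tm2321), and 8 libraries of wild-type N2 hermaphrodites at the same stages served for comparison. None carried any other allele, and the only treatment named is starvation of the L1 after bleaching of adults and overnight hatching without food. The culture described is a bulk liquid one, and the sources used here do not say how embryos were staged. Nothing in the labels says that replicates came from separate cultures, so p-values measure only the spread between these samples, which may be technical. The genotype could not be checked from miRNA counts.

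A miRNA guides an Argonaute protein to messenger RNAs that match its seed, the bases near its 5′ end. EBAX-1, the worm orthologue of ZSWIM8, is the substrate receptor of a cullin-RING ubiquitin ligase linked to target-directed miRNA degradation, in which Argonaute loaded with a miRNA is destroyed and the miRNA is lost with it. The mir-35 family is made in oocytes and embryos, is essential for embryonic development, and is cleared around hatching. Larval timing is controlled by other miRNAs, lin-4 and the let-7 family, which are known for acting in larvae rather than embryos. Each miRNA gene gives a pair of strands, here called arms. The bare gene name stands below for the guide, and an asterisk for the strand that the deposited table marks as passenger.

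The 8 libraries held 170758 to 4059401 miRNA counts, with the shallowest at starved L1. TMM factors ran from 0.760 to 1.53, and the highest was that of 2-8 cell replicate 2. Levels are in CPM, meaning that each count was divided by its library's total and its trimmed-mean (TMM) factor and put on 1 scale, and a pair of values is always replicate 1 and then replicate 2. Replicates differed far beyond counting noise at every stage, with a chi-square of 102 to 1018 per degree of freedom. Of 276 arms, 112 to 184 were detected per library. At a common depth of 170758 counts, 121 and 103 arms would be expected in the starved L1 libraries and 144 to 162 in the embryo libraries. Starved L1 thus had the fewest arms at equal depth, and the groups did not overlap. The 10 most abundant arms of a library made up 67.8 to 82.1% of its counts.

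Across the 4 stages edgeR's quasi-likelihood test called 34 of 198 arms (17.2%) at an adjusted p under 0.05, and 59 at an unadjusted p under 0.05. The calls lay mainly at the first step. From the 2-8 cell to the comma stage 20 arms (10.1%) were called, 8 higher (4.04%) and 12 lower (6.06%). From comma to pretzel 1 arm (0.505%) was called, and from pretzel to starved L1 again 1 (0.505%), both higher, and none (0%) was called lower in either step. Over the whole span, starved L1 against the 2-8 cell stage, 22 arms (11.1%) were called, 10 higher (5.05%) and 12 lower (6.06%). Starved L1 against comma, a comparison chosen after seeing the data, gave 7 (3.54%), 4 higher (2.02%) and 3 lower (1.52%). The median change of all 198 arms was 0.60 in the first step, -0.11 in the second and -0.46 in the third on the log2 scale. Other scalings moved these medians by up to 1.47, the value for spike-in counts in the first step, so changes are read below beside them. Of the 51 calls in these 5 comparisons, 7 held in only 5 to 7 of the 16 fits that left out 1 library with scaling factors held: mir-245, mir-253 and mir-70 at comma, and mir-39, mir-40, mir-236 and mir-1829a over the whole span. In bulk samples, fewer cells of a type and less RNA per cell cannot be told apart.

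In each of the starved L1 libraries the mir-35 family had a smaller share of the pool than at any embryonic stage. The 8 guides took 26.9 and 51.1% of miRNA counts at the 2-8 cell stage, 46.3 and 34.4% at comma, 30.0 and 19.1% at pretzel, and 9.47 and 8.59% at starved L1. The 2-8 cell and comma libraries overlapped, and the pretzel library at 30.0% lay within the range of the 2-8 cell stage. Over the 4 stages the exact permutation test of the F ratio (2520 regroupings of the 8 libraries, adjusted over 4 shares) gave p = 0.124 (adjusted p = 0.162).

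mir-35, the founding member, was the most abundant arm of every embryonic stage. Its level was 208394 and 200362 CPM at the 2-8 cell stage, 427494 and 260292 at comma, 206239 and 113736 at pretzel, and 60266 and 75920 at starved L1. On this TMM scale both comma libraries were above all others, and both L1 libraries were below all others. As a share of counts before TMM scaling, mir-35 took 16.2 and 30.7% at the 2-8 cell stage and 33.8 and 21.9% at comma. By that measure these 2 stages overlapped. It supplied 60.1 to 72.9% of the family's guide counts in each library, so the family's share largely followed this member. From comma to starved L1 mir-35 fell by 2.34 on the log2 scale (SE 0.60, edgeR adjusted p = 0.0164), which left 19.8% of its comma level. That call was lost in refits with scaling factors held that left out comma replicate 1 (adjusted p = 0.187), starved L1 replicate 1 (0.104) or starved L1 replicate 2 (0.155). Against the 2-8 cell stage it stood at -1.59 (edgeR adjusted p = 0.063), and it passed there by DESeq2 and under both RLE factors and library totals.

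The other 7 guides were less abundant, and each was lower in both starved L1 libraries than in both comma libraries. Their courses before that differed, since mir-40 was highest in a 2-8 cell library and mir-42 was low in one. mir-37 measured 41488 and 41205 CPM, then 59330 and 48005, then 30711 and 13821, and finally 9084 and 8313 at starved L1. It was lower in both L1 libraries than in any embryo library. Its fall was 2.25 from the 2-8 cell stage (SE 0.63, edgeR adjusted p = 0.0123) and 2.63 from comma (SE 0.64, edgeR adjusted p = 0.0121).

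mir-40 went from 49957 and 35778 CPM at the 2-8 cell stage through 35761 and 33908 and then 26341 and 15590 to 9905 and 12250 at starved L1. mir-39 went from 39280 and 46866 CPM through 46091 and 49085 and then 28538 and 21003 to 11679 and 12088. Neither overlapped between starved L1 and any embryonic stage. From the 2-8 cell stage mir-40 fell by 1.95 (SE 0.65) and mir-39 by 1.86 (SE 0.62), each at an edgeR adjusted p = 0.0469. These calls and that of mir-37 were lost under spike-in scaling, at adjusted p = 0.528 for mir-40, 0.553 for mir-39 and 0.347 for mir-37, and that of mir-40 also with the replicate block (0.0529). With factors held, mir-39 lost its call in 9 of 16 fits that left out 1 library (adjusted p = 0.0508 to 0.235) and mir-40 in 9 (0.0590 to 0.189). Both lost it without any 1 of the comma, pretzel and starved L1 libraries of ebax-1(null) or the pretzel libraries of wild type, mir-39 also without 2-8 cell replicate 2 and mir-40 without 2-8 cell replicate 1. mir-37 lost its call against the 2-8 cell stage without starved L1 replicate 1 (0.0925) or 2 (0.178). The call of mir-37 against comma was lost, with factors held, without comma replicate 1 (adjusted p = 0.079), starved L1 replicate 1 (0.091) or starved L1 replicate 2 (0.211).

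mir-36 peaked at comma, at 12006 and 11628 CPM, and reached 3363 and 2849 at starved L1. mir-38 and mir-41 were the rarest members, with 189 and 388 CPM for mir-38 and 11.8 and 51.6 CPM for mir-41 at starved L1. mir-42, which lies in another gene cluster beside mir-43, mir-44 and mir-45, behaved unevenly at the start. Its 2-8 cell libraries held 2186 and 281 CPM, against 4450 and 4434 at comma, 3024 and 1896 at pretzel, and 1034 and 1261 at starved L1. The starved L1 values of mir-42 thus lay between those of the 2-8 cell replicates.

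Read step by step, the family gave no called arm among 8 in any single step. From the 2-8 cell stage to comma its changes ran from -0.30 to 1.85 with a median of 0.78, beside 0.60 for all arms. Here 5 guides were higher and 1 lower without overlap, where 34.8% and 23.2% of all arms were, and under RLE factors 4 of the 8 changes were negative. From comma to pretzel all 8 guides were lower without overlap, at -1.27 to -0.73, beside 24.2% of all arms. From pretzel to starved L1 all 8 were again lower without overlap, at -1.36 to -0.92, beside 39.9% of all arms. The lower values thus lay in both later steps, with medians of -0.91 and -1.08, and no guide passed edgeR in either step alone. The unadjusted counts over all arms in these steps were 50, 17 and 19, and DESeq2 called 48, 12 and 12. Against the 2-8 cell stage 3 of 8 guides were called lower in starved L1, beside 6.06% of all arms, and 5 lay lower without overlap, beside 26.8%. From comma to starved L1 all 8 guides were lower without overlap, beside 34.8% of all arms, with a median of -1.98 beside -0.56. Every one of the 8 stayed below 0 in that comparison and from pretzel to starved L1 under all 41 other settings tried.

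**Figure D1:**
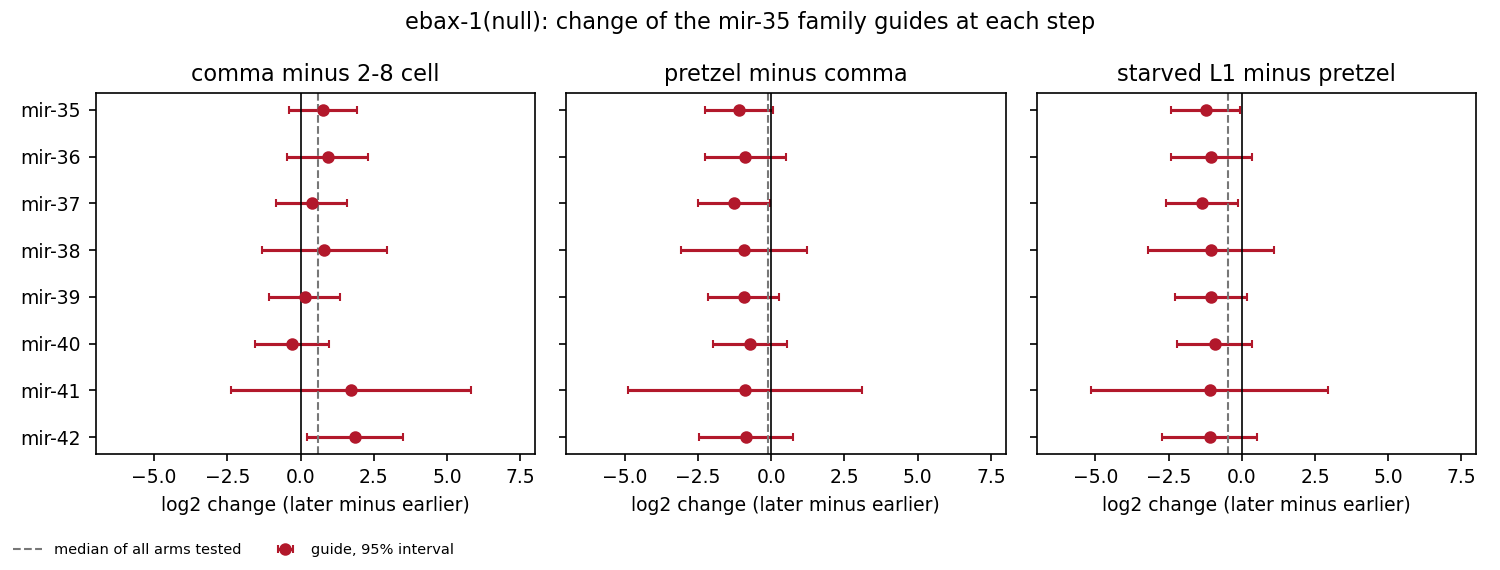
Log2 change of each mir-35 family guide in ebax-1(null) at the 3 developmental steps, with 95% intervals from edgeR, where the dashed line is the median of all 198 arms and the solid line is no change. Points scatter from -0.30 to 1.85 in the first step and lie between -1.36 and -0.73 in the other steps, left of the dashed line.

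The passengers of the family did not mirror the guides one for one, though most were lower in starved L1 than at the 2-8 cell stage. Over that span 5 of 7 tested passengers were lower without overlap, beside 26.8% of all arms, with a median of -2.32. From comma to pretzel 4 of 7 were, beside 24.2%, and from pretzel to starved L1 2 of 7, beside 39.9%. The passenger mir-41_5p* was more abundant than its guide early on, at 3013 and 2118 CPM at the 2-8 cell stage, 1236 and 302 at comma, 186 and 49.2 at pretzel, and 41.4 and 0 at starved L1. Both 2-8 cell libraries exceeded every later one. The guide mir-41 had only 31.3 and 47.9 CPM at the 2-8 cell stage, so the asterisk need not mark the rarer strand. mir-41_5p* fell by 7.23 to starved L1 (SE 2.21, edgeR adjusted p = 0.0498), the only call among 7 passengers tested in any comparison of stages (6.06% of all arms were called lower over this span). That call held in only 4 of 9 other settings, and RLE factors put it at adjusted p = 0.0787. It held in 11 of 16 refits that left out 1 library and in 8 of 16 with factors held. For mir-42 the guide per passenger ratio was 2.38 and 1.99 at the 2-8 cell stage, 4.36 and 6.46 at comma, 22.6 and 14.0 at pretzel, and 1.77 and 2.23 at starved L1. The pretzel libraries had the highest ratios, and starved L1 overlapped the 2-8 cell stage. The partner of mir-35 itself, mir-35_5p*, had 1 count over all 8 libraries and was not tested. Over all genes, passenger strands made up 2.78 and 2.88% of counts at the 2-8 cell stage, 1.54 and 1.03% at comma, 0.874 and 0.831% at pretzel, and 0.856 and 0.607% at starved L1. The exact permutation p over the 4 stages was 0.0190 (adjusted p = 0.0762).

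Larval timing miRNAs as a group took their largest share of counts in the libraries labelled 2-8 cell. How those embryos were staged is not given, and the source of these miRNAs was not tested. The let-7 family with lin-4 took 3.72 and 2.20% of counts at the 2-8 cell stage and 0.101 and 0.205% at comma, and stayed at 0.0756 to 0.106% afterwards. The 2-8 cell libraries were far above all others, with an exact permutation p = 0.0476 over the stages (adjusted p = 0.0952). mir-48, which represses hbl-1 in the second larval stage together with mir-84 and mir-241, measured 34362 and 9711 CPM at the 2-8 cell stage, 345 and 317 at comma, 176 and 256 at pretzel, and 124 and 53.8 at starved L1. Neighbouring mir-241 went from 3901 and 411 CPM to 21.9 and 10.5 at comma, 16.6 and 33.8 at pretzel, and 0 and 0.543 at starved L1. Both were lower in every later library than in either 2-8 cell library.

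let-7 itself, which represses lin-41 late in larval life, declined more slowly, from 7859 and 3198 CPM through 884 and 2046 at comma and 535 and 276 at pretzel to 426 and 310 at starved L1. lin-4, the repressor of lin-14, had 734 and 261 CPM at the 2-8 cell stage and at most 6.44 CPM in any later library. Of 7 members tested, mir-241 was called lower at comma (-7.07, SE 1.65, edgeR adjusted p = 0.00358), where 6.06% of all arms were. The test over the 4 stages called mir-241, let-7, mir-48 and lin-4 (edgeR adjusted p = 0.00984 for lin-4), where 17.2% of all arms were. mir-237, rare at a mean log2 CPM of 3.83, was not called there (0.121). In starved L1 against the 2-8 cell stage 3 of the 7, mir-241, mir-48 and let-7, were called lower, beside 6.06% of all arms, let-7 at -3.91 (SE 1.00, edgeR adjusted p = 0.00691) and mir-48 at -7.99 (SE 2.10, edgeR adjusted p = 0.0379). The call of mir-48 held in 9 of 9 other settings. With 1 library left out it held in 10 of 16 refits and in 8 of 16 fits with factors held. The starved L1 libraries held 1 count of mir-241 against 3695, a ratio of 5323 with a counting interval of 955 to 210300. The list's median was -5.51 at comma beside 0.60 for all arms, and -5.03 over the whole span beside 0.

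Other members of the list had their higher late values in L1. mir-84 measured 222 and 523 CPM, then 20.5 and 12.3 at comma, 57.3 and 79.0 at pretzel, and 414 and 282 at starved L1. The related mir-795 went from 8.94 and 11.98 CPM to 65.0 and 410 at starved L1. Neither passed in any comparison of stages. Under spike-in scaling the fall of let-7 to starved L1 had an adjusted p = 0.124.

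**Figure D2:**
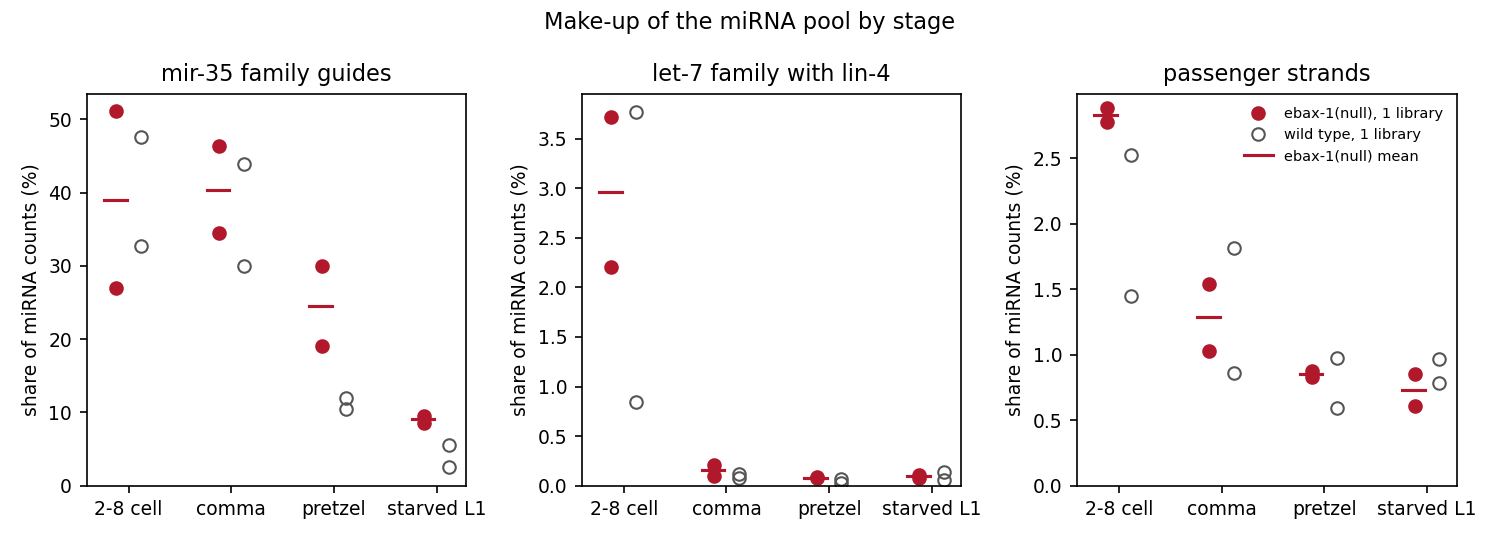
Share of all miRNA counts (%) taken by the mir-35 family guides, by the let-7 family with lin-4 and by passenger strands at each stage, with 1 point per library, filled for ebax-1(null) with a bar at their mean and open for wild type. The family's share in ebax-1(null) lies at 9.47 and 8.59% at starved L1, and larval timing miRNAs exceed 2% at the 2-8 cell stage of this strain and lie near 0.1% later.

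mir-71 had a deep trough in mid-embryogenesis and then a steep rise. This miRNA promotes long life and the survival of starved L1 larvae. It measured 160200 and 48147 CPM at the 2-8 cell stage, 19966 and 8533 at comma, 32750 and 55888 at pretzel, and 354114 and 484342 at starved L1, where it made up 35.1 and 36.8% of all counts. The comma libraries were lowest and the L1 libraries highest, with no overlap between either group and any other. It fell by 2.87 to comma (SE 0.67, edgeR adjusted p = 0.00358) and rose by 3.24 from pretzel to starved L1 (SE 0.68, edgeR adjusted p = 0.00455), the only call of that step. Against comma it rose by 4.88 (SE 0.74, edgeR adjusted p = 8.78e-06), a call that held under all 41 other settings. The rise from pretzel lost its call under spike-in scaling (2.47, adjusted p = 0.293), without starved L1 replicate 2 (2.07, adjusted p = 0.098) and, with factors held, without pretzel replicate 1 (0.495) or 2 (0.063). The fall to comma lost it under spike-in scaling (-1.39, adjusted p = 0.203) and, with factors held, without comma replicate 2 (0.163). Against the 2-8 cell stage it was higher by 2.01 (SE 0.65, edgeR adjusted p = 0.0411), a call that was lost with TMM factors made without the mir-35 family (1.33, adjusted p = 0.0685), without 2-8 cell replicate 2 (1.39, 0.063) or without starved L1 replicate 2 (0.236). With factors held it was lost in 6 of 16 fits (0.0543 to 0.221), without 2-8 cell replicate 2, either comma library, starved L1 replicate 2 or either wild-type starved L1 library.

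mir-235, a mir-92 relative that keeps blast cells quiescent in starved L1, showed the same dip. It went from 52145 and 8691 CPM to 1232 and 599 at comma, then to 18104 and 37223 at pretzel and 32334 and 41881 at starved L1. The comma libraries were below all others. It fell by 5.06 to comma (SE 1.05, edgeR adjusted p = 0.00358) and rose by 4.92 to pretzel (SE 1.04, edgeR adjusted p = 0.0199), the only call of that step. Without comma replicate 2 the rise had an adjusted p = 0.268. With factors held the rise lost its call in 7 of 16 fits that left out 1 library (adjusted p = 0.0872 to 0.634), highest without comma replicate 2. The others were without comma replicate 1, pretzel replicate 2 or any 1 of the 2-8 cell libraries of either strain. The fall to comma lost its call, with factors held, without 2-8 cell replicate 1 (0.0695) or comma replicate 2 (0.109).

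mir-238, another miRNA tied to adult lifespan, measured 8329 and 2767 CPM, then 751 and 1194 at comma, 988 and 1649 at pretzel, and 6761 and 5617 at starved L1. It fell at comma (-2.51, SE 0.81, edgeR adjusted p = 0.0384), and its higher level in L1 did not pass against comma or pretzel. The fall was called in 7 of 9 other settings. With 1 library left out it was called in 13 of 16 refits and in 11 of 16 fits with factors held. Its size ranged from -3.10 to -0.98 over the 41 other settings. mir-248 rose from 39.4 and 20.8 CPM at comma to 863 and 967 at starved L1 (4.93, SE 1.48, edgeR adjusted p = 0.0490), and with spike-in scaling or the replicate block that call was lost. Of the 5 arms tested on the list for larval survival and stress, mir-71 and mir-238 were called lower at comma, where 6.06% of all arms were. mir-71 was called higher from pretzel (0.505% of all arms) and from comma (2.02%) to starved L1, and mir-71 and mir-228 were called higher over the whole span (5.05%). mir-80 stayed between 8394 and 22872 CPM in all 8 libraries, and mir-239a had 0 counts in each.

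**Figure D3:**
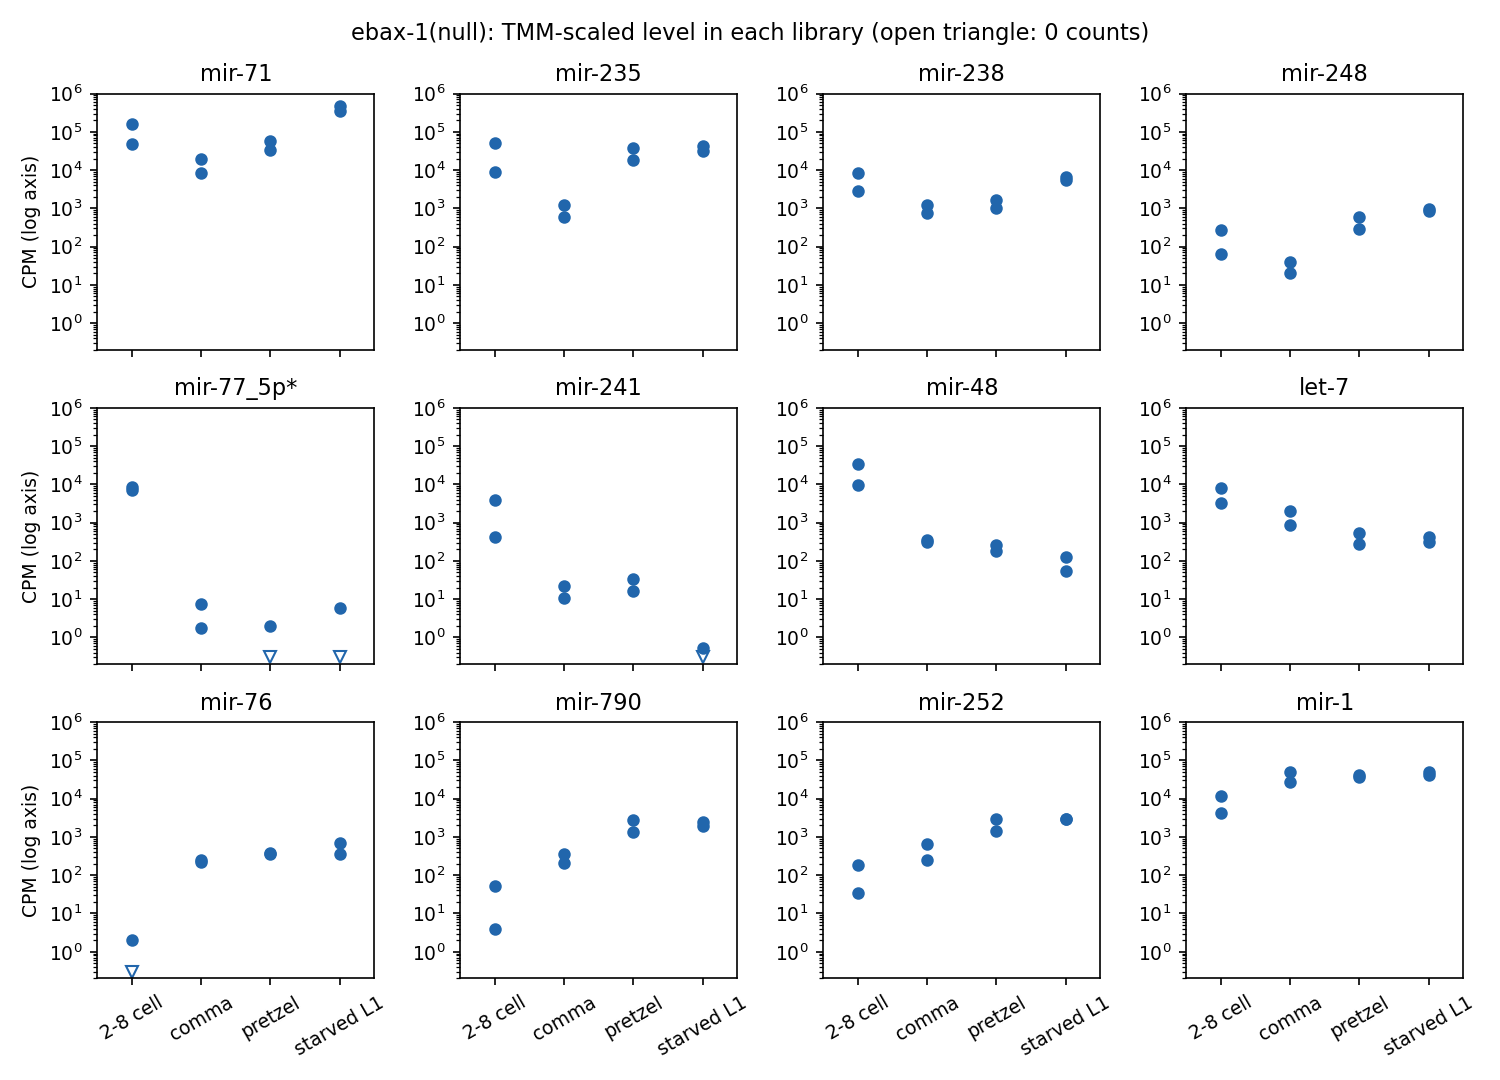
TMM-scaled level in CPM on a log axis for 12 arms in the 8 ebax-1(null) libraries, with 1 point per library and an open triangle for 0 counts. The upper panels dip at comma, as mir-235 does at 1232 and 599 CPM, the middle panels fall after the 2-8 cell stage, and the lower panels rise.

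A group of arms was abundant at the 2-8 cell stage and nearly gone at comma. mir-77_5p* went from 8518 and 6916 CPM to 7.30 and 1.76 at comma, 1.96 and 0 at pretzel, and 5.91 and 0 at starved L1. Its fall to comma (-10.86, SE 1.68, edgeR adjusted p = 0.000159) was called under every setting tried. The guide mir-77 went from 1346 and 1166 CPM to 0 and 0.585 at comma and back to 165 and 79.8 at starved L1. With 2 counts at comma against 1788, the ratio of its levels was 2628 (counting interval 726 to 21710), and with 175 at starved L1 against 2 it was 178.5 (48.7 to 1486). The opposite strands of this gene therefore had different courses, since only the guide returned in L1.

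mir-85 measured 1353 and 591 CPM at the 2-8 cell stage, 0 at comma in both libraries and at most 0.543 CPM later, which is an at least 1475-fold lower level at comma (floor of 3 counts over the group). mir-786, which sets the defecation rhythm in the intestine, went from 370 and 118 CPM to 0 and 0.293 at comma, a ratio of 1146 (counting interval 204.5 to 45390). mir-246, which is tied to adult lifespan, went from 821 and 547 CPM to 11.7 and 1.17 at comma and to 0 in both L1 libraries, at least 484-fold lower. Each of these passed edgeR in the comparison for which its ratio is given. Counting intervals and floors cover counting error only.

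Others fell at comma and had higher levels again in L1. mir-230_3p measured 2552 and 709 CPM, then 33.6 and 64.1 at comma, 61.2 and 199 at pretzel, and 857 and 1110 at starved L1, with a called fall to comma of 5.05 (SE 1.47, edgeR adjusted p = 0.0226). mir-70 measured 4303 and 2246 CPM, then 603 and 633 at comma and 3369 and 3774 at starved L1, and was called lower at comma (edgeR adjusted p = 0.0481). The passenger mir-71_3p* went from 1564 and 1281 CPM to 39.4 and 34.2 at comma and 491 and 806 at starved L1, falling by 5.27 to comma (SE 1.35, edgeR adjusted p = 0.00714). Unlike its guide, it did not exceed its 2-8 cell level in L1. Unlike these arms, mir-61, which acts in vulval Notch signalling, had its lowest levels in L1. It went from 15758 and 16601 CPM to 3848 and 5121 at comma, 4145 and 3216 at pretzel and 2866 and 2283 at starved L1. Most of its difference lay in the first step (-1.85, edgeR adjusted p = 0.0724), and it passed over the span (-2.65, SE 0.69, edgeR adjusted p = 0.00827).

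The larval timing list was also lower at comma for 6 of 7 members tested, while mir-795 stood at 0.71. Within the 2-8 cell stage replicate 1 held more than replicate 2 for 5 of these 7 and for 125 of all 198 arms (63.1%). mir-48 and mir-241 differed in this way, and mir-84 and mir-795 were higher in replicate 2. The same excess was present in arms that fell at comma, such as mir-71 (160200 against 48147 CPM), and in arms that rose, such as mir-44 (18617 against 2826) and mir-228 (8822 against 1653), but not in mir-61. The larval timing markers lin-4 and let-7 were 734 and 7859 CPM in replicate 1 and 261 and 3198 in replicate 2. In wild-type 2-8 cell libraries lin-4 had 232 and 77.6 CPM. The 2-8 cell libraries also had the most spike-in counts per miRNA count, 0.578 and 1.04, where the other 6 ranged from 0.203 to 0.385. Spike-in scaling turned the split of calls in this step from 8 higher and 12 lower to 30 higher and 5 lower. The part of these markers and of the scaling in the falls was not tested.

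A further set of miRNAs was scarce at the 2-8 cell stage and rose to stay. mir-76 had 0 and 2.00 CPM at the 2-8 cell stage, 216 and 257 at comma, 367 and 391 at pretzel, and 355 and 701 at starved L1. With 1 count at the 2-8 cell stage against 1025 at comma the ratio was 349 (counting interval 62.5 to 13790), and the call held under every setting tried. mir-62 went from 3.35 and 0 CPM to 197 and 404 at comma and 402 and 493 at starved L1, a ratio of 172 at comma (58.7 to 834). mir-245 went from 1.12 and 0 CPM to 36.5 and 41.8 at comma, 298 and 738 at pretzel, and 544 and 472 at starved L1, a ratio of 667 over the span (119 to 26380). The 2-8 cell libraries lay below all others for each of these.

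Other rises started from higher levels. mir-790 measured 53.7 and 3.99 CPM, then 355 and 203 at comma, 1312 and 2790 at pretzel, and 1897 and 2401 at starved L1, a rise of 6.19 over the span (SE 1.16, edgeR adjusted p = 0.000205). mir-252 measured 184 and 33.9 CPM, then 244 and 654, 1451 and 2915, and 2884 and 2894 at starved L1 (4.72, SE 1.03, edgeR adjusted p = 0.00146). Both were called over the span under every setting tried, and the comma and pretzel groups did not overlap for either.

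Further rises included mir-1820, from 182 and 47.9 CPM to 1643 and 2261 at starved L1 (4.08, SE 1.15, edgeR adjusted p = 0.0123). mir-236 went from 1.12 and 0 CPM to 148 and 149, a ratio of 208 (counting interval 37.1 to 8253). mir-49 peaked early, with 260 and 65.9 CPM at the 2-8 cell stage, 1632 and 3120 at comma and 910 and 799 at starved L1, and its rise of 3.86 to comma passed (SE 0.99, edgeR adjusted p = 0.00714).

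Conversely, a few arms were present in embryos and absent in L1. mir-67_5p* had 41.4 and 12.0 CPM at the 2-8 cell stage, 335 and 330 at comma, 91.0 and 27.5 at pretzel and 0 in both L1 libraries, at least 221.5-fold lower than at comma. mir-1829a had 46.5 to 143 CPM in the 6 embryo libraries and 0 at starved L1, at least 68.7-fold lower than at the 2-8 cell stage. The 0 of mir-1829a in L1 replicate 1 comes from the shallowest library, in which 3 counts amount to 17.6 CPM before TMM correction.

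Muscle and glial markers rose as the embryo formed. The muscle miRNA mir-1 went from 12069 and 4304 CPM to 51168 and 26551 at comma, 41312 and 37904 at pretzel and 42872 and 51118 at starved L1. Every later library exceeded both 2-8 cell libraries, and the rise to comma was 2.25 (SE 0.70, edgeR adjusted p = 0.0338). mir-228, which is expressed in glia, climbed from 8822 and 1653 CPM through 15073 and 19727 at comma and 34135 and 36779 at pretzel to 36950 and 50215 at starved L1, a rise of 3.06 over the span (SE 0.77, edgeR adjusted p = 0.00620).

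Of 3 neuronal markers, lsy-6 and mir-124 had no count in the 2-8 cell libraries and mir-791 had low levels. lsy-6, which sets left-right identity of a taste neuron pair, had no count at the 2-8 cell stage, 80.3 and 28.4 CPM at comma, 16.6 and 42.1 at pretzel and 106 and 63.0 at starved L1. mir-124, a miRNA of sensory neurons, had no count at the 2-8 cell stage, 4.38 and 24.6 CPM at comma, 3.91 and 11.2 at pretzel and none at starved L1. mir-791 had 5.59 and 14.0 CPM at the 2-8 cell stage, none at comma, 9.30 and 28.6 at pretzel and none at starved L1, so it was lower at comma where lsy-6 and mir-124 were higher. None of these 3 passed in any comparison of stages, so of 5 tissue markers mir-1 was called higher at comma (4.04% of all arms), and mir-1 and mir-228 over the span (5.05%).

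In the mir-51, mir-58, mir-64 and mir-2 families no member was called in any comparison of stages, where 10.1% of all arms were in the first step, 0.505% in each later one and 11.1% over the span. None of 6 members of the mir-51 family, relatives of miR-100 that are needed for embryonic viability, was called, and their median changes were 0.94, -0.17 and -0.38 in the 3 steps. mir-51 itself had 201102 and 66627 CPM at the 2-8 cell stage and 62104 and 129933 at starved L1. In the mir-58 family, relatives of bantam, 0 of 5 tested were called, with medians of 0.62, -0.10 and -0.55, and mir-2209a reached -9.49 over the span without passing. In the mir-64 family 0 of 5 were called, with medians of 0.24, -0.78 and -0.28, and mir-63 measured 334 and 263 CPM at the 2-8 cell stage and 963 and 1350 at starved L1 without passing. Of 3 mir-2 family members tested none was called, with first-step changes from -1.03 to 7.62, and mir-2, whose gene neighbours that of mir-71, stood at 3.28 in the first step where mir-71 fell.

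In the mir-44 family, mir-44 and mir-45 share reads in near equal numbers (ratio 0.964 to 1.02 per library) and are uncertain individually. mir-44 went from 18617 and 2826 CPM to 51826 and 58204 at comma, 43083 and 35496 at pretzel and 27932 and 23615 at starved L1. Its rise to comma of 2.36 (SE 0.70, edgeR adjusted p = 0.0274) passed, as did that of mir-45, while family member mir-61 was the one that fell. mir-247 was too rare to test.

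Of 6 miRNAs that earlier work linked to EBAX-1, 4 could be tested. mir-253 measured 13958 and 6597 CPM at the 2-8 cell stage, 2223 and 1491 at comma, 1199 and 1463 at pretzel and 2122 and 2953 at starved L1. It fell by 2.47 to comma (SE 0.81, edgeR adjusted p = 0.0417), where 6.06% of all arms were called lower. This was the only call among these 4 in any pairwise comparison of stages. It was lost with the replicate block (adjusted p = 0.0555). In wild type mir-253 had 4092 and 6101 CPM at the 2-8 cell stage and 544 and 294 at starved L1. Both ebax-1(null) libraries thus lay above both of wild type at each of these stages. How many of all arms separate in this way was not counted. The change in ebax-1(null) minus that in wild type did not pass for mir-253. It was 1.59 over the span (edgeR adjusted p = 0.614) and 1.24 from comma to starved L1 (edgeR adjusted p = 0.9998). mir-243_3p measured 612 and 53.9 CPM, then 362 and 198, 161 and 168, and 556 and 1348 at starved L1. mir-788 was found almost only at pretzel, with 119 and 50.1 CPM there, at most 8.77 CPM at comma and no count at the other stages. In the test over the 4 stages mir-788 was called (edgeR adjusted p = 0.0404), as was mir-253 (0.0123), where 17.2% of all arms were. mir-43 had 30.7 CPM in 1 comma library and at most 7.34 elsewhere. The remaining mir-247 and mir-797 had counts in 1 library each.

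The last comparison asked whether this course differed from that of wild type, as the change in ebax-1(null) minus the change in wild type over the same stages. edgeR called 0 of 198 arms (0%) in each of the 3 steps, over the whole span and from comma to starved L1. At an unadjusted p under 0.05 there were 19, 6 and 14 arms in the steps, 26 over the span and 16 from comma to L1. DESeq2 called 1, 0 and 0 in the steps, 10 over the span and 1 from comma to L1. Its call in the first step was mir-245, named here after its values were seen. mir-245 had 1.12 and 0 CPM at the 2-8 cell stage of ebax-1(null) and 22.4 and 119 in wild type. The call from comma to L1 was mir-237 of the larval timing list (26.2, DESeq2 adjusted p = 0.000421), beside 12.2 by edgeR (adjusted p = 0.359). This arm is rare (mean log2 CPM 3.83). Calls over the span included mir-237 (20.3, DESeq2 adjusted p = 0.0147), the family passenger mir-40_5p* (9.89, 0.0147), mir-250 (9.085, 0.01505) and mir-2 (-6.20, 0.0424). With 1 library left out, edgeR counts ranged from 0 to 7 in the first step and from 0 to 15 over the span, highest without 2-8 cell replicate 1 of wild type and without 2-8 cell replicate 2 of ebax-1(null), respectively.

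For the mir-35 family more of the guides' comma level remained in starved L1 of ebax-1(null) than of wild type for 7 of 8 members. mir-35 kept 19.8% against 6.05%, mir-37 16.2% against 7.47%, mir-40 31.8% against 13.5%, and mir-36 26.3% against 14.2%. mir-41, the rarest, kept 24.5% against 40.4%. Of the 2-8 cell level more likewise remained in ebax-1(null) for 7 of 8 members, but mir-42 stood at 93.0% against 466% in wild type. How many of all arms kept more in this strain was not counted. The starved L1 levels of mir-35 were 60266 and 75920 CPM in ebax-1(null) and 24936 and 12168 CPM in wild type, and its pretzel levels were 206239 and 113736 against 66665 and 76744. At the 2-8 cell stage its levels were 208394 and 200362 against 145034 and 189220, and at comma 427494 and 260292 against 401901 and 211767. On this TMM scale each ebax-1(null) library lay above both wild-type libraries at the 2-8 cell stage, at pretzel and at starved L1. The strains overlapped at comma. Before TMM scaling, mir-35 took 16.2 and 30.7% of counts at the 2-8 cell stage of ebax-1(null), against 20.3 and 31.2% in wild type. By that measure the strains overlapped there too. How many of all arms separate in this way was not counted. These differences in level were not tested.

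The difference in change for mir-35 from comma to starved L1 was 1.71 (95% interval 0.07 to 3.36, edgeR adjusted p = 0.582), and from the 2-8 cell stage 1.59 (-0.06 to 3.23, edgeR adjusted p = 0.413). It did not pass over all arms. It passed with refitted factors without ebax-1(null) 2-8 cell replicate 1 (2.02, edgeR adjusted p = 0.0284) or wild-type 2-8 cell replicate 2 (2.02, adjusted p = 0.0461) for the change from comma. For the change from the 2-8 cell stage it passed without ebax-1(null) comma replicate 1 (2.17, adjusted p = 0.0345), wild-type 2-8 cell replicate 1 (2.59, 0.0206) or wild-type starved L1 replicate 1 (2.77, 0.0358). The median difference of the 8 guides was 0.87 from comma and 0.85 from the 2-8 cell stage, beside -0.01 and -1.19 for all arms. mir-42 stood apart, with -3.00 in the first step (interval -5.31 to -0.69, edgeR adjusted p = 0.357), since its wild-type 2-8 cell libraries held 147 and 194 CPM against 2186 and 281.

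**Figure D4:**
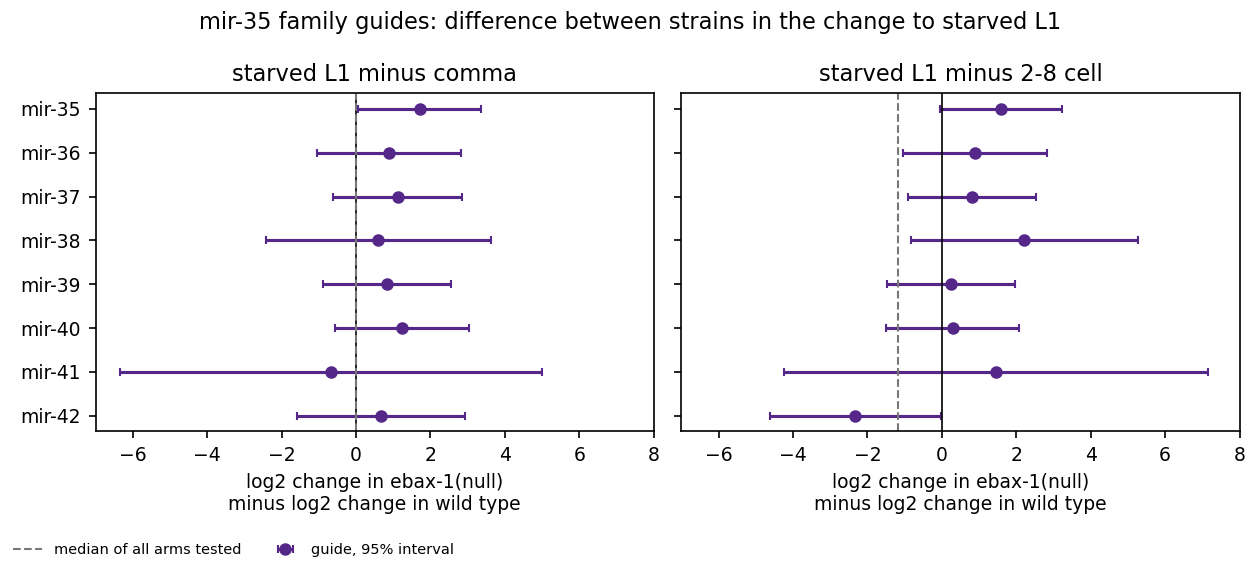
Log2 change in ebax-1(null) minus log2 change in wild type for the 8 mir-35 family guides, from comma and from the 2-8 cell stage to starved L1, with 95% intervals from edgeR, where the dashed line is the median of all 198 arms. In each panel 7 of 8 points lie right of 0, with mir-35 at 1.71 and 1.59, and no guide passed after adjustment.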

How the data were processed

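Small RNA of whole worms was sequenced, and the authors deposited a table of estimated counts per miRNA arm. All values are whole numbers except 14 in the 16 staged libraries, 2 of them in ebax-1(null), which were rounded. HTSeq 0.13.5, SAMtools 1.13, Bowtie2 2.4.4, cutadapt 3.4 and DESeq2 are named, per the submitters' processing notes, and these sources give no genome build. Spike-in lines (10) and lines of edited mir-35 sequences (10) were set aside, which left 276 arms of 138 genes. Gene neighbours came from RefSeq, in which 120 genes matched.

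Arms with enough counts (filterByExpr by group, minimum 10 counts, total 15) were tested in 1 fit over all 16 staged libraries and 8 groups, because 2 libraries per group give little information on spread (biological coefficient of variation 1.04). The fit was edgeR 4.0.16 (R 4.3.3) with TMM factors, glmQLFit (robust) and glmQLFTest, with Benjamini-Hochberg adjustment over 198 arms and a threshold of 0.05. In tests of a difference, and wherever a group is at 0, fitted changes of rare arms depend on the prior count. DESeq2 1.42.0, other scalings, other filters, a replicate block, the 8 libraries alone and leaving out each library were alternatives. Spike-in scaling, the starved L1 minus comma contrast and leaving out a library with factors held were chosen after seeing the data. The fit was tested on simulated data. Shares were compared by exact permutation (Python 3.11.15, two-sided by construction of the F ratio).

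Named arms were the 8 family guides, up to 10 called rises and falls per comparison with mean log2 CPM of at least 5 and no overlap, the 10 most abundant arms per stage, the 10 smallest p over 4 stages and members of family and marker lists. Further called arms were named after their values were seen. Members and lists were chosen with earlier results of these data known. mir-35_5p*, mir-247, mir-797, mir-794, mir-243_5p, mir-239b and mir-34 were too rare to test, and mir-793 and mir-1018 were not analysed here.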

Additional observations from a re-analysis of the deposited data

How the results depend on the processing

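All 51 calls of the 5 stage comparisons (36 arms) kept their direction in each of 41 other settings, and 9 kept their call in each: mir-76 and mir-77_5p* at comma, mir-241, mir-245, mir-252, mir-76, mir-77_5p* and mir-790 over the whole span, and mir-71 from comma to starved L1. The number of calls depended on the setting. In the first step it was 20, and 33 with TMM factors made without the mir-35 family, 48 by DESeq2, 33 without a filter, 31 with a minimum of 50 counts, 38 in the 8 libraries alone and 35 with spike-in scaling. From comma to pretzel 1 became 4 with library totals, 12 by DESeq2, 3 without a filter and 2 in the 8 libraries alone. From pretzel to starved L1 1 became 2 with library totals, 8 with TMM factors without the family, 12 by DESeq2, 7 without a filter, 4 in the 8 libraries alone and 0 by edgeR with spike-in scaling (24 at an unadjusted p under 0.05). Over the whole span 22 became 35 with RLE factors, 35 with library totals, 50 by DESeq2 and 46 in the 8 libraries alone. From comma to starved L1 7 became 13 with RLE factors, 14 with library totals, 28 with TMM factors without the family, 34 by DESeq2, 17 without a filter, 22 with a minimum of 50 counts and 23 in the 8 libraries alone. Over the 4 stages 34 became 53 with TMM factors without the family, 57 by DESeq2 and 57 without a filter. Differences from wild type went from 0 to 1 (first step), 10 (span) and 1 (comma to L1) by DESeq2. The calls that were higher moved from 8 of 20 to 18 of 33 (TMM without the family), 19 of 33 (no filter) and 30 of 35 (spike-ins) in the first step, and their share from 45.5% to 24.2%, 34.5% and 73.9% over the span, and from 57.1% to 17.9%, 23.5% and 33.3% from comma to L1, where RLE factors gave 76.9%. With spike-ins in the denominator the fall in share from the 2-8 cell stage to starved L1 passed for the let-7 family with lin-4 (-1.65 points, exact permutation adjusted p = 0.0381) and for passengers (-1.03 points, 0.0381).

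Leaving out each library in turn gave 2 to 43 calls in the first step, 0 to 6 from comma to pretzel, 0 to 15 from pretzel to L1, 10 to 44 over the span (21 to 44 with refitted factors), 1 to 29 from comma to L1 (median 11 with factors held) and 15 to 69 over the 4 stages. Differences from wild type ranged over 0 to 7, 0 to 0 and 0 to 1 in the steps, 0 to 15 over the span and 0 to 4 from comma to L1. In 14 of these 16 refits TMM took ebax-1(null) 2-8 cell replicate 2 as its reference library, in place of wild-type pretzel replicate 1, and the pretzel to L1 median shifted by -0.88 to -0.55. With factors and arms held, the first step gave 2 calls without comma replicate 2, 6 without comma replicate 1, 12 without 2-8 cell replicate 2 and 27 without 2-8 cell replicate 1, and the span gave 10 without starved L1 replicate 2 and 36 without wild-type 2-8 cell replicate 1. The change in share from the 2-8 cell stage to starved L1 ranged from -42.1 to -17.9 points for the family, -3.62 to -2.11 for the let-7 list, -2.22 to -1.97 for passengers and 1.30 to 7.78 for the top 10 arms.

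The replicate block gave 17, 1 and 1 calls in the steps, 20 over the span, 7 from comma to L1 and 34 over the stages. Replicates 1 and 2 carry different sample-name prefixes, which the labels do not call a batch, so same-numbered samples share a number and a prefix. The correlation of their deviations between stages was 0.0113 to 0.0961, which cannot show whether they were handled together. Depth limits statements on rare arms in the starved L1 library of 170758 counts, and 2 libraries per stage limit all others. Spike-in scaling is uncertain, since libraries differed in their spike-in mix.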

Other observations

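Neighbouring genes did not always move alike in ebax-1(null). In the first step mir-71 fell by 2.87 while its neighbour mir-2 stood at 3.28, whereas the neighbours mir-48 and mir-241 stood at -6.06 and -7.07. mir-61 fell by 2.65 over the span while its neighbour mir-250 stood at -0.90 without passing. These are values with no test of a shared course.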
